A study of Mus musculus with 19 samples.

Results

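The genes described here are 47 mouse genes of protein folding and stress in the endoplasmic reticulum, chosen by name, and all 47 were found among the 24062 genes of the bulk table and in the single-cell matrix. They fall into 14 luminal chaperones and cofactors, 5 protein disulfide isomerases, 9 translocon subunits, 5 signal peptidase subunits, 7 stress sensors and transcription factors, and 7 genes of endoplasmic reticulum-associated degradation. Their levels were read in 15 bulk RNA-seq libraries of mouse colon and embryonic hindgut epithelium and in 1 droplet single-cell library. The Ascl2 KO group (2 libraries) held colon stem cells labelled Ascl2Fl/Fl; Lgr5EGFP-Cre+, from mice given tamoxifen at 2 mg on the first and second day and 1 mg on the third. The Lgr5 allele of these mice carries both GFP and Cre, so recombination depends on cells that use the Lgr5 gene. The regenerating group (2 libraries) held colon cells labelled Ascl2(mCh); Lgr5Dtr-Egfp+, from mice given diphtheria toxin at 50 ug/kg in 4 injections on alternate days, which kills cells that carry the toxin receptor under the Lgr5 gene. The day of collection is not given for these bulk libraries. The WT group (3 libraries) held colon stem cells of the same reporter alleles with no knockout. All adult mice were of mixed C57BL/6 and 129/Sv background, their ages are not given, and cells were sorted on mCherry or GFP. Wild-type CD1 embryos gave Epcam+ hindgut cells at E11, E12, E14 and E16 (2 biological replicates per age). The single-cell library held mCherry+ GFP- cells on day 8 of regeneration, after diphtheria toxin at 50 ug/kg in 4 injections. Allele, tamoxifen and Ascl2 genotype differ together between the Ascl2 KO group and the other adult groups and cannot be told apart. The alleles given for the Ascl2 KO group name no mCherry, so the reporter used for sorting may differ with them. The labels do not say that the adult replicates came from separate animals, so p-values measure the spread between these libraries.

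Proteins bound for secretion or the cell surface enter the endoplasmic reticulum through the translocon, lose their signal peptide to signal peptidase, fold with the help of chaperones and disulfide isomerases, and are passed back to the cytosol for degradation when they fail. Load beyond this capacity is sensed by Ire1 (Ern1, and Ern2 in mucosal epithelium), Perk (Eif2ak3) and Atf6, which act through Xbp1, Atf4 and Ddit3. In the colon the pathway is known for its part in goblet cells, which fold and secrete large amounts of mucin.

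Promoter sequences are shown first because a known DNA element lies in many of these genes. Cleaved Atf6 and spliced Xbp1 are known to act through the endoplasmic reticulum stress response element, called ERSE and made of CCAAT and CCACG with 9 bases of any kind between them, and through a second form, called ERSE-II and made of ATTGG and CCACG with 1 base between them. Both strands were searched from 250 bases before to 50 bases after a start of each gene, in RefSeq sequence of GRCm38.p6. For Edem1 and Spcs2 the window lay within the gene, and the outermost start was not searched. A window was found for 38 of the 47 genes. Hyou1, Manf, Sec61a1, Ssr2, Spcs3, Sec11c, Ern2, Atf6 and Derl1 had none and were not searched. Some genes had several windows, and each gene was counted once. An ERSE lay in a window of 9 of these 38 genes (23.7%), against 37 of all 27025 genes with a window (0.137%). An ERSE-II lay in 2 (5.26%), against 0.0444% of all genes with a window, and either element in 11 (28.9%), against 0.181%. The genes were chosen by name from the pathway that these elements are known for, so the contrast describes the list and is no test. The elements are given below in the 5′ to 3′ direction of the strand that matched, with the fixed bases in capitals.
Hspa5: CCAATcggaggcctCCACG
Hsp90b1, forward strand: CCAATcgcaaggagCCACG
Hsp90b1, reverse strand: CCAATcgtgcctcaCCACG
Calr: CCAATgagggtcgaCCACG
Canx: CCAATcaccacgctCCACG
Dnajc3: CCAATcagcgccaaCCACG
Creld2: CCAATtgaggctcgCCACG
Pdia6: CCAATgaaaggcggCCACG
Syvn1: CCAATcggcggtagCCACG
Derl3: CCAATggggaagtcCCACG
Dnajb11: ATTGGcCCACG
Herpud1: ATTGGgCCACG
The matches of Calr, Creld2 and Derl3 lay on the reverse strand, as did 1 of the pair in Hsp90b1. Other motifs were searched too. TGACGTGG, a core bound by Xbp1, lay in 0 of 38 genes (0.714% of all genes with a window). TGATGNAAT, bound by Atf4 with its C/EBP partners, lay in 0 of 38 (1.08% of all genes with a window). A match describes the letters only. Of the 11 genes with an element, 7 encode luminal chaperones or their cofactors, 1 a disulfide isomerase and 3 degradation factors. No translocon, signal peptidase or sensor gene that had a window is among them. The windows of Hspa5 (chr2:34771840-34772139, forward strand) and Herpud1 (chr8:94386179-94386478, forward strand) are given whole, with the element in capitals, since these genes recur below.
Hspa5: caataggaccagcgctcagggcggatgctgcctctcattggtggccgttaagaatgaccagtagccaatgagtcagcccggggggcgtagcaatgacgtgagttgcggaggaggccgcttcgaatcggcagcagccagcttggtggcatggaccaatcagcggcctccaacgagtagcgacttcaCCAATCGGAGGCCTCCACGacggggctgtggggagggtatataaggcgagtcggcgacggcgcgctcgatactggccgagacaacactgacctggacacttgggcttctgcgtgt
Herpud1: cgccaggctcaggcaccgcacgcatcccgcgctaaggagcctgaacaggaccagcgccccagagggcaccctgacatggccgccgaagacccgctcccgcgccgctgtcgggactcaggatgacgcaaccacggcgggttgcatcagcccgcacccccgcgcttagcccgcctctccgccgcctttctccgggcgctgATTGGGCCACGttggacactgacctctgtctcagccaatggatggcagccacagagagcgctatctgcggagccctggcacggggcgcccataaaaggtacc

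Levels of bulk libraries are CPM, gene counts scaled to a common total with TMM factors, and are compared between libraries, not between genes. Gene counts came to 13826958 to 30583908 per library, and 13911 genes of the adult and 16481 of the hindgut libraries were tested. A gene was called at an adjusted p below 0.05, with edgeR's quasi-likelihood test and Benjamini-Hochberg adjustment over all genes tested. Ascl2 stood at 53.8 and 59.2 CPM in Ascl2 KO, 85.7 and 57.0 CPM in regenerating and 109.7, 151 and 104 CPM in WT libraries, so transcript remained in the knockout. Lgr5 stood at 3.71 and 10.3 CPM in Ascl2 KO and 1.79 and 7.18 CPM in regenerating libraries, against 27.9 to 53.5 CPM in WT. Summed levels of markers of several cell types differed between the adult groups. For 14 colonocyte markers the sum was 24060 and 17680 CPM in Ascl2 KO and 2498 and 8156 CPM in regenerating libraries. In WT libraries it spread from 3733 to 17190 CPM, with no colonocyte marker at 0 in any adult group. The summed level of 13 goblet markers was 37140 and 47260 CPM in Ascl2 KO, 19110 and 33290 CPM in regenerating and 2676 to 7643 CPM in WT libraries. The sum of 8 deep crypt secretory markers was 17790 and 33870 CPM in Ascl2 KO, 44980 and 45620 CPM in regenerating and 2516 to 5746 CPM in WT libraries, and no marker of either list was at 0 in any adult group. The sum of 14 enteroendocrine markers was 1865 and 2534 CPM in Ascl2 KO, 77.1 and 49.3 CPM in regenerating and 88.6 to 216 CPM in WT libraries, with no marker at 0 in any adult group. The sum of 10 myeloid markers was 1397 and 826 CPM in Ascl2 KO, 292 and 143 CPM in regenerating and 128 to 361 CPM in WT libraries (1 marker at 0 in WT), and that of 10 stromal markers 145 and 224 CPM in Ascl2 KO, 16.6 and 14.2 CPM in regenerating and 6.37 to 13 CPM in WT (3 at 0 in WT). The sum of 10 stem cell markers was 474 and 523 CPM in Ascl2 KO (1 at 0) and 1159 and 1168 CPM in regenerating libraries, against 1341 to 1676 CPM in WT. The part of these cells in the differences below was not tested. In bulk libraries fewer cells of a type and less RNA per cell cannot be told apart. Xist ranged from 0.0299 to 50.0 CPM and Ddx3y from 0 to 31.8 CPM over the adult libraries, and sex was not a term of any fit.

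The comparison of regenerating with WT cells asks what sets cells of the refilling crypt apart from stem cells at rest. Dnajc10 and Fkbp11 rose, and many other listed genes lay higher in both regenerating libraries without passing the test. Dnajc10, a reductase and Hspa5 cofactor that opens wrong disulfide bonds, stood at 172 and 271 CPM in regenerating libraries, against 57.0, 65.5 and 62.7 CPM in WT. Its log2 fold change was 1.84 ± 0.23 (SE, adjusted p = 0.0203). Fkbp11, a prolyl isomerase of secretory cells, stood at 63.1 and 100.2 CPM in regenerating libraries, against 22.0, 21.9 and 25.4 CPM in WT, a log2 fold change of 1.82 ± 0.24 (SE, adjusted p = 0.0204). For both genes the groups stood apart, with regenerating replicate 2 the higher of its pair. These were 2 of 47 listed genes called, against 0.331% of all genes tested (0.302% up and 0.0288% down). Each call rested on single libraries. Without regenerating replicate 2 the log2 fold changes were 1.44 for Dnajc10 (adjusted p = 0.169) and 1.41 for Fkbp11 (adjusted p = 0.200). Both calls were also lost without either Ascl2 KO library, which share the estimate of spread (adjusted p = 0.0511 to 0.0595), without WT replicate 1 (0.110 for Dnajc10 and 0.112 for Fkbp11) and without WT replicate 3 (0.0542 and 0.0519). With only both groups fitted, neither was called (0.102 and 0.115), and Fkbp11 lost its call with the replicate block (0.0602). DESeq2 called 11 listed genes, of 477 called in all, adding Ern2, Xbp1, Atf4, Atf6, P4hb, Sec61b, Ssr4, Herpud1 and Edem1.

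Of the 47 genes, 26 lay higher in both regenerating libraries than in every WT library, against 17.6% of all genes tested, and 0 lay lower, against 11.3%. The median log2 fold change over the 47 was 0.49, against 0.01 over all genes tested, and 39 point estimates were above 0. The translocon had 8 of 9 genes in this position and the disulfide isomerases 4 of 5. The sensors and factors had 5 of 7, the degradation genes 4 of 7, signal peptidase 3 of 5, and the luminal chaperones 2 of 14. The 2 chaperones were the called pair, Dnajc10 and Fkbp11. Genes with a stress response element in the promoter had a median log2 fold change of 0.11 (11 genes), against 0.61 for the 27 genes with a window and no element.

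Among the sensors, Ern2, the Ire1 form of mucosal epithelium, stood at 199 and 364 CPM in regenerating libraries, against 75.9, 107 and 109 CPM in WT, with a log2 fold change of 1.53 ± 0.28 (SE, adjusted p = 0.08). Xbp1, the factor whose mRNA Ire1 splices, stood at 876 and 926 CPM, against 468, 587 and 409.9 CPM in WT, with 0.88 ± 0.21 (SE, adjusted p = 0.164). Gene counts do not separate its spliced from its unspliced form. Atf6 stood at 19.2 and 31.1 CPM in regenerating libraries, against 6.43, 9.62 and 11.8 CPM in WT, with 1.44 ± 0.38 (SE, adjusted p = 0.196). Ern2, Xbp1 and Atf6 thus lay above every WT library, and none passed edgeR's test, while DESeq2 called all of them (adjusted p = 0.000511, 0.0148 and 0.0191). Atf4, the factor translated when Perk slows protein synthesis, stood at 325 and 329 CPM in regenerating libraries, against 144, 207 and 145 CPM in WT, with 0.98 ± 0.24 (SE, adjusted p = 0.177) and an adjusted p of 0.0238 in DESeq2. Ddit3, the Chop factor induced under prolonged stress, stood at 22.9 and 29.8 CPM, against 13.6, 19.0 and 17.5 CPM in WT, with 0.66 ± 0.25 (SE, adjusted p = 0.369). The groups of Atf4 and Ddit3 did not overlap either. For Ern1 the regenerating libraries held 5.89 and 6.18 CPM, against 5.93, 3.83 and 2.20 CPM in WT, with 0.60 ± 0.92 (SE, adjusted p = 0.942). Eif2ak3 stood at 15.3 and 42.1 CPM in regenerating libraries, against 15.8, 13.3 and 7.13 CPM in WT, with 1.25 ± 0.50 (SE, adjusted p = 0.406). The groups of Ern1 and Eif2ak3 overlapped. Hspa5, the BiP chaperone that holds the sensors inactive, stood at 1588 and 2116 CPM in regenerating libraries, against 1553, 2004 and 904 CPM in WT, with overlapping groups and 0.32 ± 0.32 (SE, adjusted p = 0.884).

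**Figure D1:**
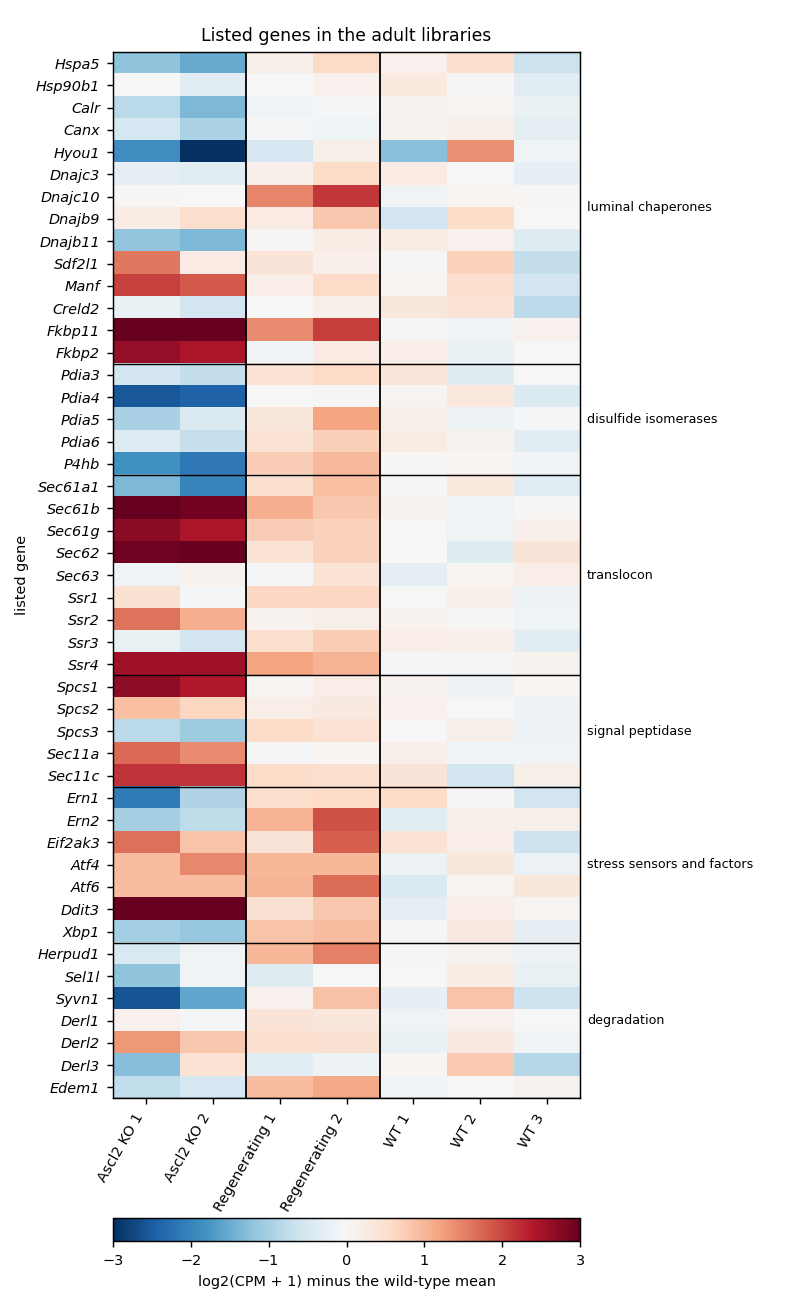
Each row is 1 of the 47 genes, ordered by role, and each column 1 adult library (Ascl2 KO, regenerating, WT). Colour gives log2(CPM + 1) minus the mean of the 3 WT libraries and saturates at 3 units. Most rows are red in both regenerating columns, while the Ascl2 KO columns hold both strong reds, such as Ddit3 and Fkbp11, and strong blues, such as Pdia4 and P4hb.

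The comparison of Ascl2 KO with WT cells asks how the Ascl2 KO libraries differ from those of WT colon stem cells, with allele and tamoxifen differing too. Listed genes changed in both directions, within most roles too. The translocon subunits Sec61b, Sec62 and Ssr4, the signal peptidase subunit Spcs1, the Chop factor Ddit3 and the prolyl isomerases Fkbp11 and Fkbp2 rose, while Hspa5, Xbp1, Pdia4, P4hb, the pore subunit Sec61a1 and the degradation ligase Syvn1 fell. Of the 47 genes, 28 were called, 15 up and 13 down, against 36.2% of all genes tested (18.8% up and 17.4% down). Scaling set the balance. With library size alone, 38 were called, 11 up and 27 down, and the median of all genes lay at -1.001 on the log2 scale, against -0.02 with TMM. The share of all genes called with that scaling is not given here, so these counts cannot be set against it. The TMM factors were 0.616 and 0.659 in Ascl2 KO libraries and 1.21 to 1.32 in WT, and 51.2 and 51.4% of reads of the Ascl2 KO libraries aligned to several places, against 39.1 to 40.2% in WT. The part of these library properties in the calls was not tested. Calls of this comparison named without an exception held in every alternative tried.

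Ddit3 stood at 178 and 242 CPM in Ascl2 KO libraries, against 13.6, 19.0 and 17.5 CPM in WT, a log2 fold change of 3.65 ± 0.26 (SE, adjusted p = 5.42e-05). Both Ascl2 KO libraries lay far above every other adult library. Atf4 stood at 312 and 443 CPM in Ascl2 KO libraries, against 144, 207 and 145 CPM in WT, with 1.19 ± 0.24 (SE, adjusted p = 0.00496). That call was lost without Ascl2 KO replicate 2 (0.91, adjusted p = 0.0502) and with library size scaling (0.21, adjusted p = 0.551), and an offset for genomic span turned the direction (-0.060, adjusted p = 0.885). Xbp1 stood at 238 and 220.1 CPM in Ascl2 KO libraries, against 468, 587 and 409.9 CPM in WT, with -1.09 ± 0.22 (SE, adjusted p = 0.00499), and its groups did not overlap. Ern2 stood at 47.7 and 56.1 CPM, against 75.9, 107 and 109 CPM in WT, with -0.90 ± 0.30 (SE, adjusted p = 0.0414). The call of Ern2 was lost without Ascl2 KO replicate 1 (0.194) or 2 (0.108) and without WT replicate 2 (0.0780) or 3 (0.0960), and with the span offset (0.0615). Ern1 stood at 0.0906 and 1.56 CPM, against 5.93, 3.83 and 2.20 CPM in WT, below every WT library without passing the test (-2.27 ± 1.06 (SE, adjusted p = 0.127)), though it was called by DESeq2 (0.037) and with library size scaling (0.0371). Eif2ak3 stood at 38.2 and 21.7 CPM in Ascl2 KO libraries, against 15.8, 13.3 and 7.13 CPM in WT, with 1.31 ± 0.50 (SE, adjusted p = 0.0698). Atf6 stood at 17.9 and 18.1 CPM, against 6.43, 9.62 and 11.8 CPM in WT, with 0.96 ± 0.38 (SE, adjusted p = 0.0778), and its direction flipped to -0.022 with library size scaling. Both lay above every WT library without passing edgeR's test, while DESeq2 called them (adjusted p = 0.0309 for Eif2ak3 and 0.0359 for Atf6), and Eif2ak3 was also called with no filter on low counts (0.0389). Among the sensors and factors, the pair that rose were thus the downstream factors Ddit3 and Atf4, and the pair that fell were Xbp1 and Ern2.

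Hspa5 stood at 613 and 494 CPM in Ascl2 KO libraries, against 1553, 2004 and 904 CPM in WT, a log2 fold change of -1.43 ± 0.34 (SE, adjusted p = 0.011). The groups did not overlap, and the call was lost without Ascl2 KO replicate 2 (-1.28, adjusted p = 0.0852). Among 14 luminal chaperones, 3 rose and 5 fell. Fkbp11 stood at 245 and 218 CPM in Ascl2 KO libraries, against 22.0, 21.9 and 25.4 CPM in WT, with 3.32 ± 0.25 (SE, adjusted p = 5.42e-05). Fkbp2, another prolyl isomerase, stood at 994 and 881 CPM, against 184, 139 and 158 CPM in WT, with 2.55 ± 0.21 (SE, adjusted p = 6e-05). The third that rose was Manf, a secreted cofactor of Hspa5 (1.89, adjusted p = 0.00146, lost with the span offset at 0.0579). Besides Hspa5, Dnajb11, a co-chaperone of Hspa5 (-1.30, adjusted p = 0.00289), Calr, the lectin calreticulin (-1.05, adjusted p = 0.00795), Canx, the lectin calnexin (-0.74, adjusted p = 0.0346), and Hyou1, a nucleotide exchange factor of Hspa5 (-2.91, adjusted p = 0.0200), fell. The calls of Calr and Canx were lost without Ascl2 KO replicate 2 (0.0664 and 0.210), and that of Canx also without Ascl2 KO replicate 1 (0.0501), WT replicate 1 (0.0908), WT replicate 2 (0.0664) or regenerating replicate 1 (0.0530), with only both groups fitted (0.0540) and with the span offset (0.0798). Hyou1 rested on few libraries, with -3.78 without Ascl2 KO replicate 1 (adjusted p = 0.0507), -2.38 without Ascl2 KO replicate 2 (0.134) and -1.92 without WT replicate 2 (0.0349), and it lost its call with the replicate block (0.0620).

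The disulfide isomerases lay lower throughout. Pdia4 stood at 48.6 and 52.9 CPM in Ascl2 KO libraries, against 305, 361 and 217 CPM in WT, a log2 fold change of -2.54 ± 0.27 (SE, adjusted p = 0.000157). P4hb, the classical isomerase Pdi, stood at 239 and 194 CPM, against 877, 892 and 804 CPM in WT, with -1.99 ± 0.22 (SE, adjusted p = 0.00021). Pdia3, Pdia5 and Pdia6 lay below every WT library too, with log2 fold changes of -0.67, -0.69 and -0.54 and adjusted p values of 0.0636, 0.0984 and 0.107. Over all 47 genes, 17 lay above every WT library (29.5% of all genes tested) and 18 below (28.5%).

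In the translocon 5 of 9 subunits rose and 1 fell. Sec61b, a small subunit of the pore, stood at 1200 and 1045 CPM in Ascl2 KO libraries, against 149.8, 127 and 142 CPM in WT, a log2 fold change of 3.01 ± 0.20 (SE, adjusted p = 5.42e-05). Sec61g, the other small subunit, stood at 20.9 and 17.3 CPM, against 2.35, 2.05 and 2.70 CPM in WT, with 3.01 ± 0.45 (SE, adjusted p = 0.00102), from low counts. Sec61a1, the large subunit that forms the channel, stood at 139.7 and 91.1 CPM, against 368, 439.7 and 288 CPM in WT, with -1.66 ± 0.29 (SE, adjusted p = 0.00231). Within the pore, then, Sec61b lay higher and Sec61a1 lower in both Ascl2 KO libraries than in every WT library. Sec61g lay higher too, at bulk levels far below those of Sec61b. In regenerating bulk libraries Sec61g stood at 4.6 and 4.4 CPM, against 297.5 and 244.7 CPM for Sec61b. Over all single cells Sec61g and Sec61b stood at 463.8 and 803.7 CPM of UMIs, much closer together. The reason was not tested, so the bulk level of Sec61g cannot be set against the other subunits. Sec62, a partner of the pore, stood at 651 and 735 CPM in Ascl2 KO libraries, against 84.2, 66.3 and 112 CPM in WT, with 2.98 ± 0.25 (SE, adjusted p = 6.15e-05). Ssr4, a subunit of the translocon-associated protein complex, stood at 1467 and 1471 CPM, against 243, 245 and 269.6 CPM in WT, with 2.54 ± 0.19 (SE, adjusted p = 5.42e-05). Ssr2 of the same complex also rose (1.38, adjusted p = 0.00133), a call lost with library size scaling (adjusted p = 0.155), while Ssr1 and Ssr3 were not called (0.22 and -0.39), and Ssr1 turned to -0.77 with library size scaling (adjusted p = 0.0176).

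All 5 signal peptidase subunits were called. Spcs1 stood at 1210 and 999.5 CPM in Ascl2 KO libraries, against 203, 169 and 195 CPM in WT, a log2 fold change of 2.55 ± 0.20 (SE, adjusted p = 5.43e-05). The catalytic subunits Sec11a and Sec11c rose as well (1.57 and 2.12, adjusted p = 0.000394 and 0.000448), as did Spcs2 (0.78, adjusted p = 0.0131). For Spcs2 the direction flipped to -0.21 with library size scaling, and the call was lost without Ascl2 KO replicate 1 (0.107). Spcs3 fell (-0.95, adjusted p = 0.00727), a call lost without Ascl2 KO replicate 2 (0.0579). Of the 7 degradation genes, Derl2, a channel-like protein of the retrotranslocation complex, rose (1.07, adjusted p = 0.00637, lost without Ascl2 KO replicate 1 at 0.0703 and with library size scaling). Syvn1, the ligase Hrd1, fell (-2.24, adjusted p = 0.012, lost without Ascl2 KO replicate 1 at 0.0930, and -2.92 without Ascl2 KO replicate 2). Edem1, a lectin that hands misfolded glycoproteins to degradation, fell too (-0.63, adjusted p = 0.0389). Its call was lost without either Ascl2 KO replicate, any WT replicate or regenerating replicate 1, with RLE factors, the replicate block, the span offset or only both groups fitted (adjusted p = 0.0503 to 0.186).

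Short genes tended to lie higher in Ascl2 KO cells, over all genes as well as among the listed ones. Genes were put into 5 equal classes by genomic span. In the shortest class, up to 7294 bases, the median log2 fold change was 0.94 over 2623 genes and 1.08 over the 16 listed genes there. In the next classes the medians over all genes were -0.06, -0.38, -0.38 and -0.03. With an offset for span, 13 listed genes were called up and 10 down, and the median of all genes was -0.16. The share of all genes called with this offset is not given here. Of the 11 genes with a stress response element, 0 rose and 5 fell (Hspa5, Calr, Canx, Dnajb11 and Syvn1), with a median of -0.54. Of the 27 with a window and no element, 12 rose and 4 fell, with a median of 0.78. Over all genes tested, 18.8% rose and 17.4% fell. The 11 genes include no translocon or signal peptidase subunit, so this split overlaps with the roles. The share of gene counts taken by the 47 genes was 1.06 and 1.01% in Ascl2 KO and 1.20 to 1.66% in WT libraries.

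**Figure D2:**
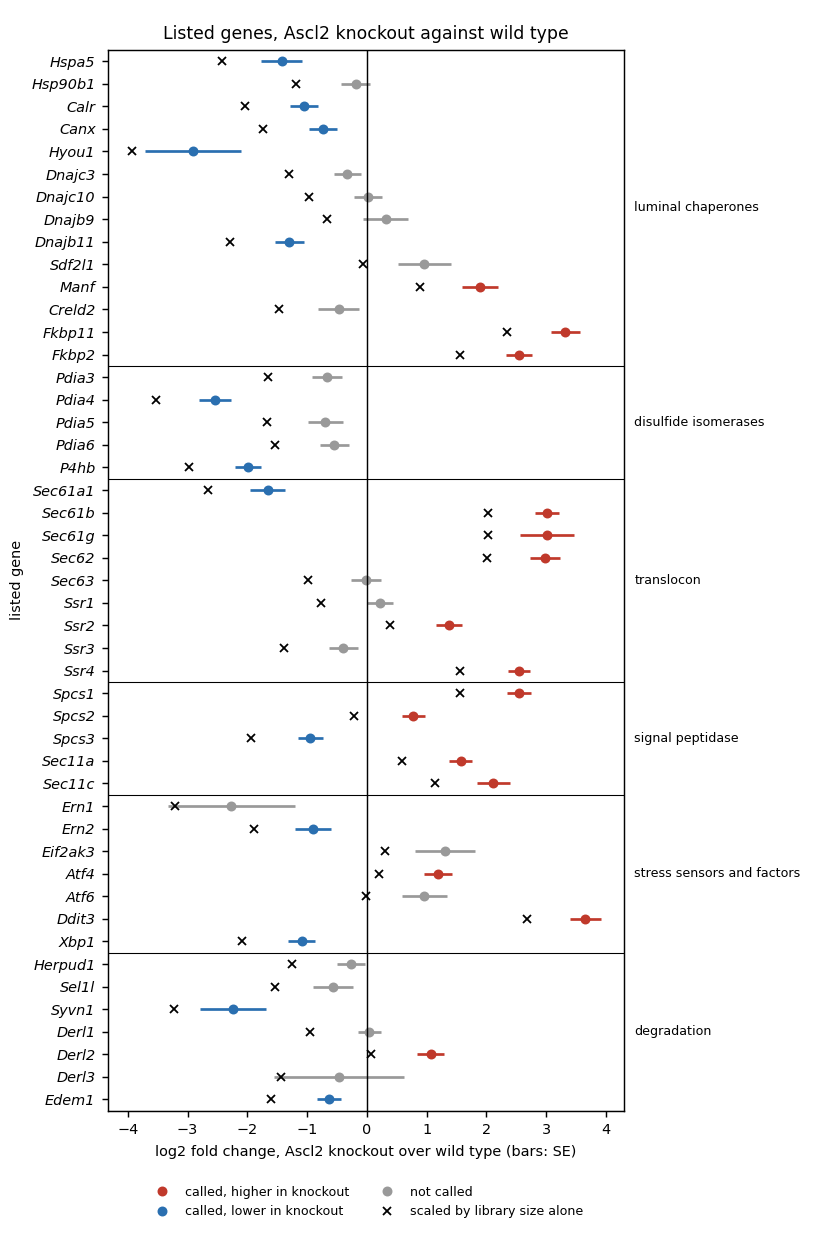
Points give the log2 fold change of Ascl2 KO over WT for each of the 47 genes, ordered by role, with SE bars from edgeR. Red points were called higher, blue points called lower and grey points not called, and black crosses give the same value with library size scaling. The 15 red points include 5 of 9 translocon and 4 of 5 signal peptidase subunits, while the 5 disulfide isomerases all lie below 0, and the crosses lie lower by about the shift of all genes.

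Set against regenerating cells, Ascl2 KO cells had 12 listed genes higher and 17 lower, against 15.4% and 16% of all genes tested (31.4% in all). Library size scaling gave 8 and 28, with the median of all genes at -0.84 on the log2 scale, against -0.04 with TMM. The share of all genes called with it is not given here. This comparison shares its Ascl2 KO libraries with the one above. P4hb stood at 239 and 194 CPM in Ascl2 KO libraries, against 1437 and 1696 CPM in regenerating libraries, a log2 fold change of -2.85 ± 0.24 (SE, adjusted p = 0.000205), and all 5 disulfide isomerases fell here. Without Ascl2 KO replicate 2 or regenerating replicate 2, Pdia3 (0.0686 and 0.0578) and Pdia6 (0.0796 and 0.0658) lost their calls. Pdia5 lost its call without Ascl2 KO replicate 1 (0.0623) or regenerating replicate 2 (0.0519). Xbp1 stood at 238 and 220.1 CPM, against 876 and 926 CPM in regenerating libraries, with -1.98 ± 0.24 (SE, adjusted p = 0.000538). Ern2 stood at 47.7 and 56.1 CPM, against 199 and 364 CPM in regenerating libraries, with -2.44 ± 0.33 (SE, adjusted p = 0.000859). Both Xbp1 and Ern2 had their highest adult levels in regenerating cells and their lowest in Ascl2 KO cells. Herpud1, the scaffold of the degradation complex, stood at 272 and 348 CPM in Ascl2 KO libraries, against 742 and 1066 CPM in regenerating libraries, with -1.54 ± 0.26 (SE, adjusted p = 0.00227). Syvn1 stood at 6.43 and 14.1 CPM, against 48.2 and 81.5 CPM in regenerating libraries, with -2.66 ± 0.58 (SE, adjusted p = 0.00826), lost without Ascl2 KO replicate 1 (0.0652) and -3.34 without Ascl2 KO replicate 2. Ern1 had the largest point estimate after Ddit3 and was not called (-2.87 ± 1.13 (SE, adjusted p = 0.0852)), though DESeq2 (0.0143) and library size scaling (0.0329) called it. Hspa5 fell (-1.74 ± 0.37 (SE, adjusted p = 0.00697)), a call lost without Ascl2 KO replicate 2 (-1.60, adjusted p = 0.0559).

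Genes higher in Ascl2 KO than in regenerating cells were again Ddit3 (2.99 ± 0.29 (SE, adjusted p = 0.000238)), Spcs1 (2.42 ± 0.23 (SE, adjusted p = 0.000218)), Fkbp2 (2.46 ± 0.25 (SE, adjusted p = 0.000248)), Sec62 (2.46 ± 0.29 (SE, adjusted p = 0.000436)) and Sec61b (2.05 ± 0.23 (SE, adjusted p = 0.000362)). Pdia4 fell by 2.51 on the log2 scale (adjusted p = 0.000342). Fkbp11 was ordered from Ascl2 KO down through regenerating to WT libraries with no overlap at either step, and its higher level than in regenerating cells (adjusted p = 0.00306) was lost with library size scaling (0.0595) and the span offset (0.113). Atf4, at 312 and 443 CPM in Ascl2 KO libraries, against 325 and 329 CPM in regenerating libraries, was not called (0.21 ± 0.27 (SE, adjusted p = 0.605)), and its direction flipped with library size scaling (-0.58) and the span offset (-0.9997). Atf6 (-0.48 ± 0.42 (SE, adjusted p = 0.426)) and Eif2ak3 (0.06 ± 0.55 (SE, adjusted p = 0.947)) were not called, with library size scaling Eif2ak3 flipped to -0.75 and Atf6 was called lower (-1.28, adjusted p = 0.0410). Of the 11 genes with a stress response element, 0 rose and 6 fell, with a median of -0.98. Of the 27 with a window and no element, 9 rose and 8 fell, with a median of 0.06. Over all genes tested, 15.4% rose and 16% fell.

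**Figure D3:**
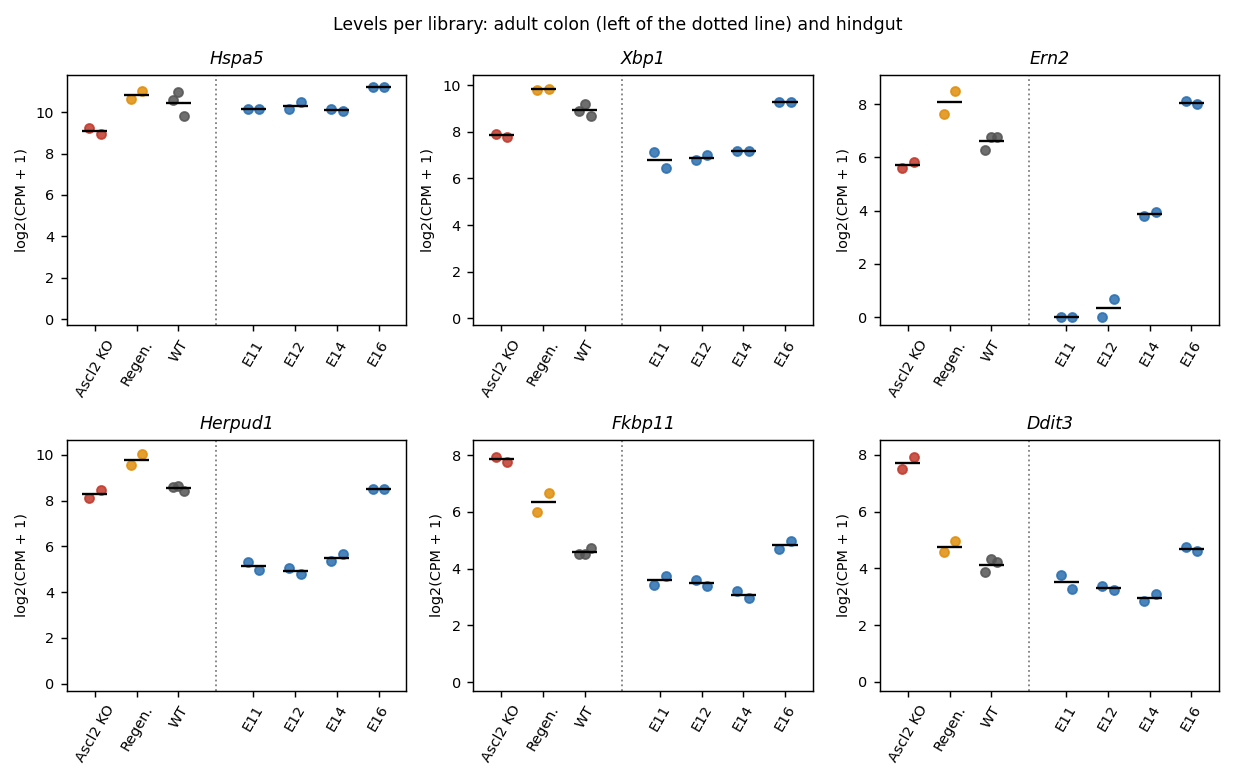
Each point is 1 library and each bar a group mean of log2(CPM + 1), for 6 of the genes, with adult groups left and hindgut ages right of the dotted line. Adult and hindgut libraries were made and scaled separately. Xbp1, Ern2 and Herpud1 are highest in regenerating cells among adult groups, Fkbp11 and Ddit3 in Ascl2 KO cells, and all 6 genes have their highest hindgut mean at E16.

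The hindgut libraries ask how the listed genes change while the embryonic epithelium matures. At E16 most of them stood above E11, the sensors and factors without exception. Of 47 genes 40 were called in E16 against E11, 36 up and 4 down, against 55.7% of all genes tested (29.6% up and 26.2% down). The median log2 fold change was 0.69, against 0.05 over all genes tested. The listed genes took 1.75 and 1.84% of gene counts at E16, against 1.09 and 1.12% at E11. Herpud1 stood at 38.4 and 30.7 CPM at E11, 32.3 and 26.9 at E12, then 40.1 and 49.3 at E14 and 363 and 368 at E16, a log2 fold change of E16 over E11 of 3.40 ± 0.17 (SE, adjusted p = 7.61e-06). Pdia5 stood at 62.1 and 51.9 CPM at E11, 47.8 and 62.1 at E12, then 46.3 and 51.2 at E14 and 362 and 357 at E16, with 2.66 ± 0.16 (SE, adjusted p = 1.29e-05). Sec11c stood at 12.2 and 11.6 CPM at E11, 12.4 and 8.85 at E12, then 15.7 and 15.7 at E14 and 105 and 137 at E16, with 3.35 ± 0.23 (SE, adjusted p = 2.23e-05). In each of the 3 genes both E16 libraries stood several times above every earlier one.

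All 7 sensors and factors rose. Ern2 had 0 CPM in both E11 libraries, 0 and 0.627 at E12, then 12.9 and 14.3 at E14 and 274 and 254 at E16. Against a floor of 3 counts over the E11 group it was at least 5053-fold higher at E16 (adjusted p = 3.09e-05). Xbp1 stood at 138 and 87.3 CPM at E11, 108 and 127 at E12, then 144 and 144 at E14 and 614 and 616 at E16, with 2.45 ± 0.20 (SE, adjusted p = 5.5e-05). Ern2 was thus above its E12 level at E14 already, and Xbp1 left its earlier range at E16. Atf4 stood at 163 and 134 CPM at E11, 165 and 159 at E12, then 180.4 and 177 at E14 and 349 and 418 at E16, with 1.37 ± 0.13 (SE, adjusted p = 9.31e-05). Eif2ak3 stood at 14.1 and 19.9 CPM at E11, 20.5 and 13.7 at E12, then 27.3 and 34.8 at E14 and 64.0 and 55.9 at E16, with 1.82 ± 0.27 (SE, adjusted p = 0.000968). Both lay above every earlier library at E16. Atf6 stood at 22.2 and 37.0 CPM at E11, 21.5 and 19.0 at E12, then 38.8 and 43.0 at E14 and 86.8 and 62.6 at E16, with 1.33 ± 0.27 (SE, adjusted p = 0.00395). Ddit3 stood at 12.6 and 8.57 CPM at E11, 9.44 and 8.40 at E12, then 6.14 and 7.55 at E14 and 25.8 and 23.6 at E16, with 1.22 ± 0.30 (SE, adjusted p = 0.0103), a call lost without E16 replicate 1 (0.0587). Ern1, at low counts, stood at 3.12 and 3.93 CPM at E11, 0.762 and 3.59 at E12, then 7.10 and 8.84 at E14 and 16.1 and 12.6 at E16, with 2.03 ± 0.66 (SE, adjusted p = 0.0321). Its call was lost without any 1 of the E11, E14 or E16 libraries (adjusted p = 0.0532 to 0.128).

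Hspa5 stood at 1144 and 1144 CPM at E11, 1140 and 1427 at E12, then 1150 and 1076 at E14 and 2365 and 2390 at E16, a log2 fold change of E16 over E11 of 1.05 ± 0.11 (SE, adjusted p = 0.00014). With it 12 of 14 luminal chaperones rose and 0 fell, and Manf and Creld2 were not called. Of the 5 disulfide isomerases 4 rose and Pdia4 was not called (0.04 ± 0.12 (SE, adjusted p = 0.786)). Of the 7 degradation genes 6 rose, among them Edem1, at 204 and 196 CPM at E16, against 73.1 and 78.0 CPM at E11 (1.40 ± 0.12 (SE, adjusted p = 6.19e-05)). The translocon was mixed, with 5 of 9 up and 2 down, as was signal peptidase, with 2 of 5 up and 2 down. The 4 that fell were Sec61b (-0.59, adjusted p = 0.00744, lost without E16 replicate 1 at 0.0642), Sec62 (-0.68, 0.00627, lost without E16 replicate 1 at 0.0571), Spcs1 (-0.59, 0.00458) and Sec11a (-0.73, 0.00308). Of the 11 genes with a stress response element, 9 rose and 0 fell, with a median of 0.70. Of the 27 with a window and no element, 19 rose and 4 fell, with a median of 0.60. Over all genes tested, 29.6% rose and 26.2% fell. Of the 39 calls followed singly under the alternatives, 26 held in all of them.

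Markers of other cells also appeared at E16. The summed level of 13 goblet markers was 8021 and 8704 CPM at E16, against 27.8 to 96.8 CPM at the earlier ages. The sum of 10 stromal markers was 9370 and 8045 CPM at E16, against 176 to 311 CPM before, and that of 10 myeloid markers 2006 and 2095 CPM, against 3.38 to 64.5 CPM. At E16, 1 of the 13 goblet markers and none of the stromal or myeloid ones was at 0. Epithelial markers summed to 8947 and 9059 CPM at E16, against 7128 and 7157 CPM at E14, 4042 and 4672 CPM at E12 and 3895 and 3615 CPM at E11. Reads that overlapped several genes were 3.09 and 3.50% at E16 and 0.81 to 0.87% earlier. Their part in the E16 values was not tested.

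**Figure D4:**
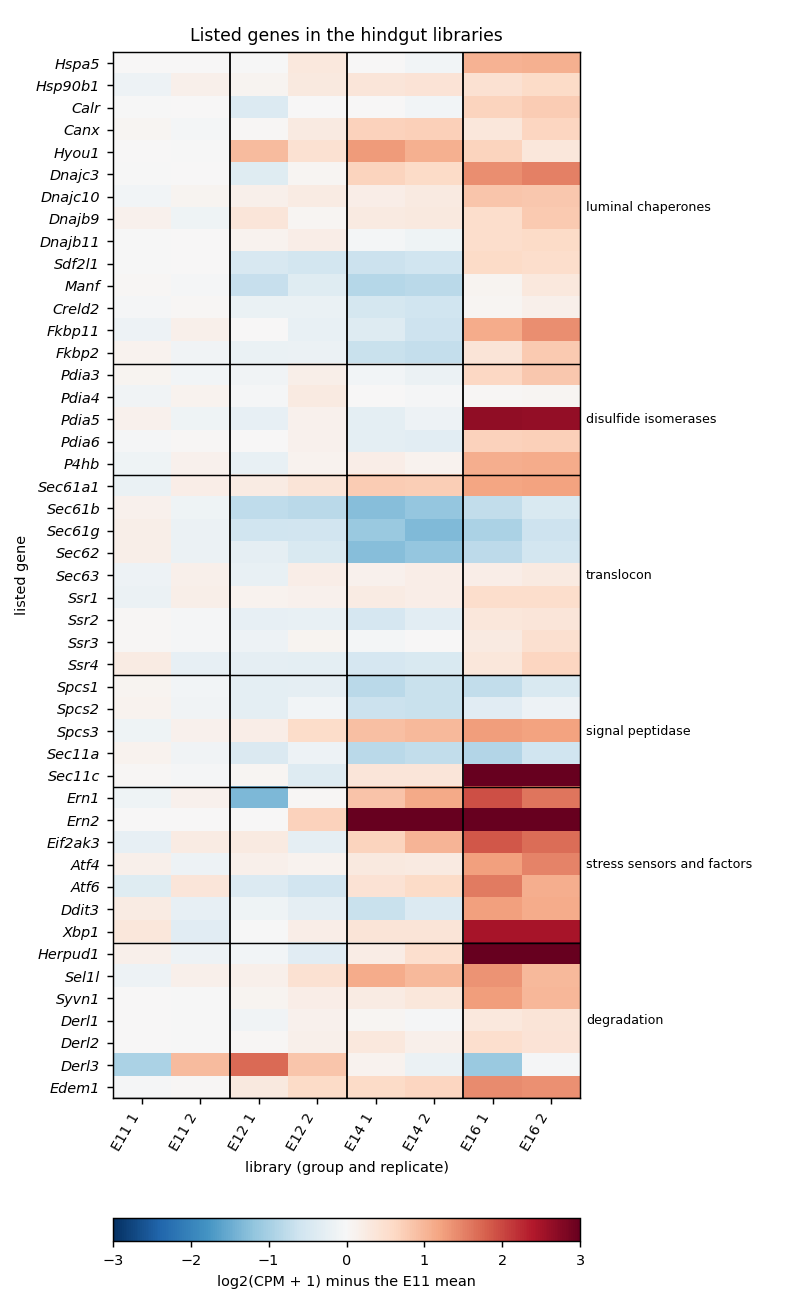
Each row is 1 of the 47 genes, ordered by role, and each column 1 hindgut library from E11 to E16. Colour gives log2(CPM + 1) minus the mean of both E11 libraries and saturates at 3 units. The E12 columns are pale for most genes, Ern2 is dark red from E14, and the E16 columns are red for most of the 36 genes called higher, most strongly Ern2, Herpud1, Sec11c and Pdia5.

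Step by step, E12 against E11 had 2 listed genes called, both lower, against 2.63% of all genes tested (1.76% up and 0.874% down). They were Sec61b, at 90.5 and 88.6 CPM at E12, against 169 and 142 CPM at E11 (-0.80 ± 0.14 (SE, adjusted p = 0.0305)), and Sdf2l1, a cofactor of Hspa5, at 52.7 and 50.0 CPM, against 73.3 and 74.1 CPM at E11 (-0.52 ± 0.11 (SE, adjusted p = 0.0497)). The call of Sec61b was lost without E11 replicate 1, either E12 or E14 library or E16 replicate 2 (adjusted p = 0.0523 to 0.108), and that of Sdf2l1 without any 1 library (0.0570 to 0.171). Between E14 and E12, 17 were called, 9 up and 8 down, against 28.3% of all genes tested (14.4% up and 13.9% down). Ern2 was the clearest of them (5.39 ± 0.61 (SE, adjusted p = 0.00164)), with 4.43 without E12 replicate 1 and 11.30 without E12 replicate 2, the library that held its only E12 reads. Dnajc3, a luminal co-chaperone of Hspa5, stood at 98.1 and 91.6 CPM at E14, against 47.4 and 63.3 CPM at E12 (0.78 ± 0.15 (SE, adjusted p = 0.00771)). Sec62 stood at 79.4 and 86.2 CPM, against 160.4 and 139 CPM at E12 (-0.85 ± 0.15 (SE, adjusted p = 0.00566)). Without E14 replicate 1 the calls of Dnajc3 (0.0585) and Sec62 (0.0651) were lost. Canx (0.54), Sel1l (0.74) and Spcs3 (0.55) were also called higher and Pdia6 (-0.38) and Spcs2 (-0.48) lower, and of the 17 calls 1, that of Ern2, held in every alternative. Without E14 replicate 1 there were 2 calls and without E14 replicate 2 there were 3, with a single E14 library standing for its age and assumed to vary like the other ages.

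The step to E16 held most of the change. In E16 against E14, 33 listed genes were called, 32 up and 1 down, against 39.6% of all genes tested (20.6% up and 19% down). Pdia6 stood at 1018 and 1031 CPM at E16, against 514 and 508 CPM at E14 (1.00 ± 0.08 (SE, adjusted p = 0.00011)), and Sdf2l1 at 109.8 and 107 CPM, against 46.5 and 48.5 CPM at E14 (1.19 ± 0.11 (SE, adjusted p = 0.000217)). Herpud1 (3.03 ± 0.17 (SE, adjusted p = 3.16e-05)), Pdia5 (2.88 ± 0.16 (SE, adjusted p = 3.16e-05)), Sec11c (2.95 ± 0.22 (SE, adjusted p = 9.49e-05)), Xbp1 (2.09 ± 0.20 (SE, adjusted p = 0.000262)), Hspa5 (1.09 ± 0.11 (SE, adjusted p = 0.000296)) and Atf4 (1.10 ± 0.13 (SE, adjusted p = 0.000591)) rose in this step. Ern2 did as well (4.28 ± 0.43 (SE, adjusted p = 0.000596)), with an adjusted p of 0.0534 in DESeq2. The gene that fell was Hyou1 (-0.66 ± 0.19 (SE, adjusted p = 0.0299)), a call lost without E14 replicate 1 (0.148), E14 replicate 2 (0.0653) or E16 replicate 2 (0.167). Of the 33 calls, 23 held in every alternative tried. An F test over the 4 ages called 41 of 47, against 63% of all genes tested, and the others were Derl1, Dnajb9, Sec61g, Derl3, Sec63 and Pdia4.

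The single-cell library asks which cells of the regenerating crypt hold these transcripts. It had 1 sample and no replicate, so values carry counting intervals only and no test. Of 6794880 barcodes, 3397 passed as cells, with at least 1000 UMIs and 500 genes and at most 20% mitochondrial UMIs, and the median was 20640 UMIs per cell. Cells were clustered without the listed genes or the other pathway genes into 14 clusters, of which 12 had at least 50 cells. The doublet caller marked 0 cells and is taken not to have worked, so doublets were kept. The listed genes took 1.63% of UMIs (exact 95% interval 1.61 to 1.64%) in cluster 11, a goblet-like cluster of 251 cells led by Muc2. They took 1.45% (1.44 to 1.46%) in cluster 8, a deep crypt secretory-like cluster of 458 cells led by Cma1 and Reg4, and 1.33% (1.31 to 1.36%) in cluster 13, a goblet-like cluster of 56 cells led by Zg16. The next were cluster 2, led by Mptx1 and Guca2b, at 1.09% and cluster 10, led by Lyz1, at 1.02%. The lowest was cluster 7, colonocyte-like, at 0.675%. Droplets without a cell held 0.676%. These 3 goblet- and deep crypt-like clusters, called secretory below, held the highest shares, and droplets without a cell were near the lowest. Cluster names rest on the 10 leading genes alone. Summed deep crypt secretory markers stood at 51090 CPM of UMIs in cluster 8 and 63610 in cluster 11. Summed goblet markers stood at 55180 CPM of UMIs in cluster 8 and 77850 in cluster 11. The names of clusters 8 and 11 thus do not separate deep crypt from goblet cells. Clusters 2 and 10 held goblet markers at 20120 and 16130 CPM of UMIs and deep crypt secretory markers at 14980 and 12280. These levels are below those of the secretory clusters, and both clusters are counted with the others below. Cluster 12, an enteroendocrine-like cluster of 19 cells and under the 50-cell minimum, held 0.914% and is in neither group below. Median UMIs per cell were 11185 to 13389 in the secretory clusters and 18832 to 35428.5 in the other 9, and the effect of this gap in depth was not tested.

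Summed over their 765 cells, the secretory clusters gave the listed genes 1.51% of UMIs, against 0.850% in the 2577 cells of the other 9 clusters. Of the 47 genes, 35 had a higher level in each secretory cluster than in every other cluster, against 9.68% of the 7725 genes at 10 CPM or more (here CPM of UMIs, summed over the cells of a cluster). The ratio of secretory to other cells was above 1 for 46 of 47, against 39.4% of those genes, with a median of 1.71 against 0.892. Derl3, with few UMIs, was the exception, at 0.527 CPM in secretory cells, against 0.643 in other cells. All 7 sensors and factors and all 5 disulfide isomerases were among the 35, with 9 of 14 chaperones, 8 of 9 translocon, 3 of 5 signal peptidase and 3 of 7 degradation genes. The median ratio was 2.62 for the sensors and factors, 2.14 for the isomerases and 1.41 for the degradation genes.

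Ern2 had 175.5 CPM in secretory cells, against 32.3 in other cells and 26.0 in droplets without a cell, a ratio of 5.43. Dnajc10 had 361 CPM in secretory cells, against 67.7 in other cells and 60.5 in empty droplets, with 478 in cluster 11 and 32.1 in cluster 7. Fkbp11 had 168 CPM in secretory cells, against 36.4 in other cells, with 226 in cluster 11 and 5.75 in cluster 7. Dnajc10 and Fkbp11, the pair called in the bulk regenerating libraries, were the only listed genes with a cluster at 4 or more times their level in all cells. Xbp1 had 406 CPM in secretory cells, against 155 in other cells, Ddit3 67.7 against 19.1, Atf4 274 against 117, and Ern1 22.4 against 6.60. In empty droplets Fkbp11 stood at 36.4, Xbp1 at 147, Ddit3 at 31.6, Atf4 at 176 and Ern1 at 5.42 CPM, near to or above the levels in other cells for these genes. Empty droplets held a median of 63 UMIs, and how much free RNA adds to the cells was not tested. Hspa5, with 1209 CPM in secretory cells, against 708 in other cells and 315 in empty droplets, differed less, at a ratio of 1.71. Canx had 225 CPM in secretory cells, against 222 in other cells, and was nearly even. Genes with a stress response element had a median ratio of 1.46, against 1.94 for those with a window and no element. Over the 12 clusters, Spearman's rho between the listed share and the share of goblet and deep crypt markers was 0.73, given as a description of clusters of 1 library.

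**Figure D5:**
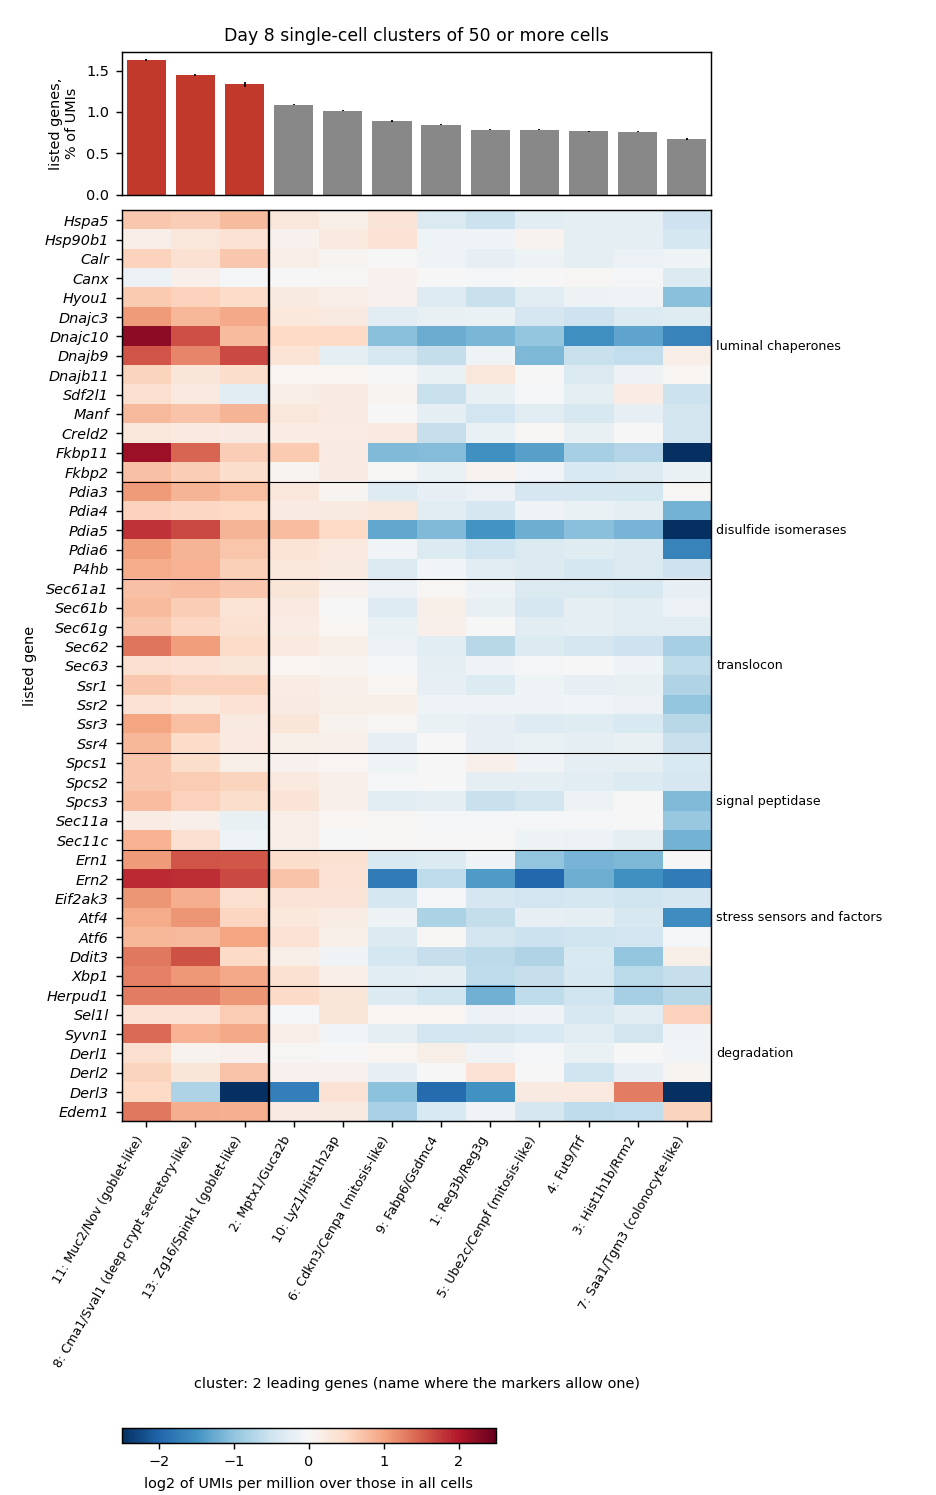
Bars give the share of UMIs from the 47 genes in each of 12 clusters, with exact 95% intervals, and the map below gives log2 of CPM over the level in all cells. The 3 secretory clusters (11, 8 and 13) stand left of the line. Their bars lie at 1.33 to 1.63%, above all others, and their columns are red for nearly every gene, most strongly Dnajc10, Fkbp11, Pdia5 and Ern2.

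Of 139 other gene symbols of the pathway, which include older and newer names of the same gene, 131 were in the bulk table and 130 were tested. In regenerating against WT cells, 4 rose and 0 fell, against 0.302% and 0.0288% of all genes tested. They were Agr2, an isomerase needed for mucin folding (1.76 ± 0.28 (SE, adjusted p = 0.0492)), Qsox1, a sulfhydryl oxidase (2.58 ± 0.37 (SE, adjusted p = 0.0249)), Tmed3, a cargo receptor (1.44 ± 0.19 (SE, adjusted p = 0.0204)), and the transcription factor Creb3l4 (2.15 ± 0.32 (SE, adjusted p = 0.0335)). In Ascl2 KO against WT cells, 33 rose and 35 fell, against 18.8% and 17.4% of all genes tested. Among subunits of the oligosaccharyltransferase, the enzyme that attaches N-glycans, the log2 fold changes were 3.20 for Krtcap2, 2.97 for Ost4 and 2.94 for Dad1 (adjusted p = 5.42e-05 each). Among the other isomerases and oxidases Agr2 (2.80) and Prdx4 (1.17) rose and Txndc5 fell (-1.45). In the signal recognition particle Srp14 and Srp19 rose (2.18 and 2.26) and Srp68 fell (-1.70). Nupr1, a stress-induced regulator, rose by 4.35 on the log2 scale, while Atf6b fell by 2.15. In Ascl2 KO against regenerating cells, 25 rose and 43 fell, against 15.4% and 16% of all genes tested. Among those that fell were Qsox1 (-3.40) and the isomerase Txndc5 (-2.73). In E16 against E11, 55 rose and 18 fell, against 29.6% and 26.2% of all genes tested, with which the next counts also compare. Of 18 coat and cargo proteins of transport to the Golgi, 13 rose and 0 fell, led by Sec24d (2.64), Sec31a (1.49) and Surf4 (1.03). Of 30 stress signalling partners and targets, 14 rose and 0 fell, with Creb3l1 at 7.93, Atf3 at 7.48 and Cebpb at 3.97.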

How the data were processed

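The deposited bulk table holds read counts per gene, made by the authors with STAR 2.5.3a and HTSeq on GRCm38 or mm10, per the submitters' processing notes; the strand setting is not given in the sources used here, so genes that overlap on opposite strands cannot be told apart. The single-cell file, deposited with every barcode, gives UMI counts that Cell Ranger 3.0.2 made, as its header says. The members and lists were chosen with earlier results of these data known.

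Adult and hindgut libraries were fitted apart in edgeR 4.0.16 (R 4.3.3), with filterByExpr, TMM, a term for group, and two-sided quasi-likelihood tests adjusted over all genes. The common biological coefficient of variation was 0.513 and 0.310. Rows that name no gene (5) were left out. The test was checked on simulated counts. Single cells were clustered with scanpy 1.11.5 (2000 variable genes, 30 components, 15 neighbours, Leiden resolution 0.6). Intervals cover counting error only. Genes named with values in every library were Hspa5 and the 7 sensors and factors, and per comparison up to 8 with the smallest adjusted p and 4 with the largest fold change; 3 genes per pathway list may be named. The 3 ChIP libraries were not analysed here.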

Additional observations from a re-analysis of the deposited data

How the results depend on the processing

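Of the counts of listed genes called, 45 of those under alternatives without a library left out stayed within 1.5 times and 10 did not. In regenerating against WT cells, where 2 were called, 6 were called with no filter on low counts, 1 with the replicate block, 11 with DESeq2 and 0 with only both groups fitted. In E12 against E11, where 2 were called, 1 was called with library size, 1 with no filter, 0 with the replicate block, 1 with the span offset (chosen after seeing the data), 5 with DESeq2 and 0 with only both groups fitted. Leaving out 1 library gave 0 to 3 calls for regenerating against WT, 21 to 29 for Ascl2 KO against WT, 23 to 30 for Ascl2 KO against regenerating, 32 to 39 for E16 against E11, 0 to 2 for E12 against E11, 2 to 18 for E14 against E12, 24 to 33 for E16 against E14, and 36 to 41 over the 4 ages. Correlations of the deviations from the group mean were computed between libraries of different groups, and all were small. Replicates of the same number had correlations of 0.010 to 0.108 (median 0.062) in adult and -0.029 to 0.042 in hindgut libraries. Adult libraries of different numbers had -0.12 to 0.12 (median -0.027). In a group of 2 libraries the deviations mirror each other, so these values cannot settle whether the numbers pair the samples. With the replicate block 27 genes were called for Ascl2 KO against WT and 39 for E16 against E11.

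With library size 7 of the 47 genes turned direction in Ascl2 KO against WT: Atf6 (-0.022), Spcs2 (-0.21), Sdf2l1 (-0.060), Dnajb9 (-0.67), and Dnajc10 (-0.97), Ssr1 (-0.77) and Derl1 (-0.95), which were then called lower. With the span offset 4 turned there, Atf4 (-0.060), Dnajb9 (-0.49), Sdf2l1 (-0.38) and Sec63 (0.030), and with RLE factors, DESeq2 or the replicate block 1, Sec63. Of these only Spcs2 and Atf4 were called with TMM. Library size turned 7 genes in regenerating against WT and 6 in Ascl2 KO against regenerating, none of them called. Values follow for the genes followed singly. In Ascl2 KO against regenerating, Atf4 was at -0.58 with library size, -0.9997 with the span offset and -0.076 to 0.42 with 1 library left out. Eif2ak3 there was at -0.75 with library size, -0.00069 with no filter and -0.50 to 0.91 with 1 library left out. In E12 against E11, Eif2ak3 was at -0.0091 with RLE factors, -0.045 with the span offset, -0.0087 with DESeq2 and -0.30 to 0.28 with 1 library left out. Leaving out 1 library gave there -0.505 to 0.051 for Ddit3, -0.016 to 0.27 for Atf4, -0.24 to 0.42 for Xbp1, -2.20 to 0.030 for Ern1 and -0.0020 to 0.32 for Hspa5. Hspa5 was at 0.0056 in E14 against E12 with the span offset. The causes were not tested. With at most 10% mitochondrial UMIs, the listed share was 0.810% in cluster 1, 0.715% in cluster 7, 1.46% in cluster 8 and 0.883% in cluster 12; with at least 2000 UMIs it was 0.791% in cluster 14. With 2 libraries in most groups, small changes lie below what the tests can call.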
